A study of Caenorhabditis elegans with 4 samples.

Results

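The regions described here are the places on chromosome II of Caenorhabditis elegans where RNA polymerase II was called as bound in L3 larvae. They were formed from every peak on II in the 3 deposited peak lists, 442 peaks in all, by joining peaks that share at least 1 bp. This gave 225 regions, out of 1922 that the same steps give over the whole series; chromosome I, which has far more peaks than any other in all 3 lists, is not used for comparison here. The choice of members used only the chromosome and the positions of the peaks, so their widths, q-values and list support were free to vary.

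The polymerase was collected by chromatin immunoprecipitation and sequencing (ChIP-seq) with the monoclonal antibody 8WG16, which recognises the heptapeptide repeats in the tail of the polymerase's largest subunit, AMA-1. There were 2 polymerase ChIP samples and 2 samples of input DNA, the total chromatin that serves as control. All came from hermaphrodites of strain OP54 kept at 20 °C and fixed with 2% formaldehyde. Every group carries unc-119(ed3), and the integrated transgene wgIs54, made by bombardment, adds unc-119(+) and egl-5, a Hox gene, fused to TY1, EGFP and 3xFLAG. An untagged strain and other stages are not analysed here. Whole larvae were used, and binding in few cells cannot be told apart from weak binding in many.

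RNA polymerase II transcribes all protein-coding genes and many small RNA genes. It gathers at gene starts, moves through the gene body and is often detected again near the gene's end, so a ChIP peak can be a sharp spike at a start or a broad domain over a busy gene or a run of genes. In C. elegans many genes lie in operons, in which one promoter serves several genes. The autosomes have no single point-like centromere. Their central parts hold the more widely expressed and conserved genes, while the arms recombine more in meiosis and are richer in repeats and in silencing marks on histone H3. Where the polymerase lies along an autosome is therefore commonly described by arm and centre.

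The 3 peak lists held 123 peaks on II from ChIP replicate 1, 127 from replicate 2, and 192 in the combined list, which the authors called on the merged reads of both. Replicate 1 had 1959480 uniquely mapped reads, replicate 2 had 2364309, or 1.21 times as many, and the merged input that served as control had 1861526. Of all reads, 39.8% mapped uniquely in replicate 1 and 57.0% in replicate 2, against 11.7% and 7.50% in the 2 input samples. Each peak has a q-value given by the authors, its false discovery rate, and strength is written below as −log10 q, where a larger number means a stronger call. The q-values on II run from 7.9e-285 to 0.00999. Because q depends on depth, a smaller q in one list than in another is a difference in the call and is not read here as more polymerase. No list holds a q of 0, and whether peaks with a q too small to be written were left out of a list cannot be told from these files, so a missing peak may not be a weak one. Whether separate cultures stand behind the replicates is not told by the labels, so their spread may be technical. Neighbouring peaks are not independent and only 2 ChIP libraries exist, so no p-value is given; spread is shown as mean ± SD of the replicate lists (n = 2), and shares carry exact (Clopper-Pearson) 95% intervals that cover counting error only, and the limit given for a count of 0 is 3 counts of the total. Regions and genes were not matched, and no sequence is shown, since no genome or annotation of the build of the files, WormBase WS220, was used here.

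The left arm of II had few polymerase peaks, while the right arm as a whole had about as many per Mb as the centre. Those of the right arm were spread unevenly along it, as given below for 10 equal bins. Arms are the first and the last 25% of a span that runs from base 1 to the end of the last peak, 15230140, and the centre is the 50% between. The left arm held 14 of the 225 regions (6.22%, interval 3.44 to 10.2), the centre 142 (63.1%, interval 56.4 to 69.4) and the right arm 69 (30.7%, interval 24.7 to 37.1). Per Mb these were 3.68 regions on the left arm, 18.6 in the centre and 18.1 on the right arm. The order of the last pair turned with the list: centre over right-arm density was 1.03 for regions, 1.19 in replicate 1, 1 in replicate 2 and 0.937 in the combined list.

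Each replicate list alone showed the same imbalance. Replicate 1 had 8 peaks on the left arm, 81 in the centre and 34 on the right arm. Replicate 2 had 7, 80 and 40 peaks in the same order. The density was 1.97 ± 0.186 peaks per Mb on the left arm, 10.6 ± 0.0929 in the centre and 9.72 ± 1.11 on the right arm (SD, n = 2). The right arm was thus 4.25 times as dense as the left in replicate 1 and 5.71 times in replicate 2, and in both lists the left arm was the sparsest segment. By bases the contrast was smaller: regions covered 1.37% of the left arm, 4.83% of the centre and 3.79% of the right arm.

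**Figure D1:**
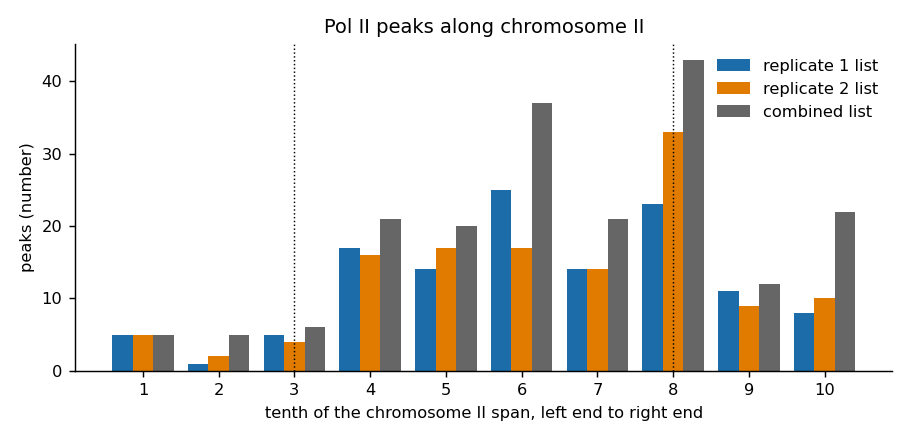
Number of Pol II peaks in each of 10 equal bins of the chromosome II span, from the left end to the right end, in the replicate 1, replicate 2 and combined lists; dotted lines mark the borders between arms and centre. Bins 1 to 3 hold 1 to 6 peaks in every list, and bin 8 holds the most in the replicate 2 and combined lists, with 33 and 43 peaks.

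At finer scale, over 10 equal bins of the span, the regions of II began to crowd in bin 4. Bins 1, 2 and 3 held 7, 5 and 7 regions, and bin 4 held 28. The densest were bin 6, with 44 regions, and bin 8, with 45, which crosses the border between centre and right arm. Bins 9 and 10, wholly on the right arm, held 17 and 23 regions, against 23 to 44 in bins 4 to 7, wholly in the centre. In replicate 1 they held 11 and 8 peaks, against 14 to 25 in bins 4 to 7. In replicate 2 it was 9 and 10 against 14 to 17, and in the combined list 12 and 22 against 20 to 37. The dense bins differed in list support. In bin 8, 18 regions had a peak of both replicates, against 10 in bin 6, where 15 rested on the combined list alone. Bin 10, at the right end, had 22 combined-list peaks but 8 in replicate 1 and 10 in replicate 2, and 2 of its 23 regions had both replicates.

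On the other chromosomes the sparser arm was not always the left one. The ratio of right-arm to left-arm density was 4.98 ± 1.04 for II (SD, n = 2 replicate lists). Treated alike, III gave 3.10 ± 0.452, IV 0.476 ± 0.147, V 0.769 ± 0.115 and X 1.36 ± 0.125. The centre was about as dense on II as on IV, with 10.6 ± 0.0929 against 10.8 ± 0.162 peaks per Mb. The lower of the replicate ratios on II, 4.25, lay above the higher one on III, 3.42, but whether II differs from any of these chromosomes was not tested.

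**Figure D2:**
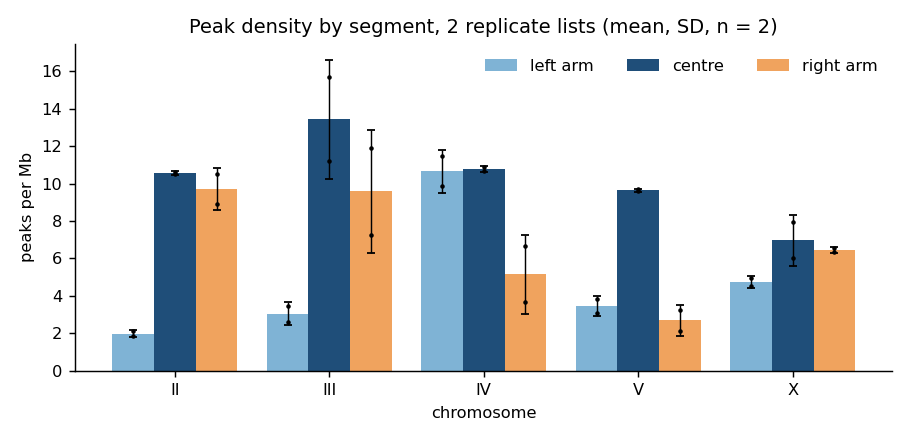
Polymerase peaks per Mb in the left arm, centre and right arm of chromosomes II, III, IV, V and X. Bars are the mean of the 2 replicate lists, error bars the SD and dots the single lists; on II the left arm stands at 1.97 and the right arm at 9.72 peaks per Mb, and IV shows the opposite order, with 10.6 and 5.15.

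Fewer than 1 in 3 regions of II were seen by both replicates. A peak from all 3 lists was present in 71 regions (31.6%, interval 25.5 to 38.1), and no region had both replicates without the combined list, which allows a share of up to 1.33%. Such regions numbered 1 of 230 on III, 2 of 250 on IV, 9 of 210 on V and 2 of 172 on X. On III, IV, V and X together, 36.8% of regions had both replicates, a value inside the interval for II. The 71 regions made up 45.8% of all bases covered on II.

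The remaining regions rested on less. Replicate 2 and the combined list shared 42 regions and replicate 1 and the combined list 21. Another 56 regions (24.9%, interval 19.4 to 31.1) were in the combined list alone, against 16.6% on III, IV, V and X; alone, III gave 22.6%, IV 14.4%, V 16.7% and X 11.6%, and the difference was not tested. Replicate 1 alone held 26 regions and replicate 2 alone 9. Peak by peak, 76 of 123 replicate 1 peaks on II overlapped replicate 2 (61.8%, interval 52.6 to 70.4), and 75 of 127 replicate 2 peaks overlapped replicate 1 (59.1%, interval 50.0 to 67.7). On the other 4 chromosomes these shares ran between 59.8% and 73.9%, and between 51.7% and 62.8%.

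The share of regions seen by both replicates was similar in size along II. Both replicates had a peak in 4 of 14 left-arm regions (28.6%, interval 8.39 to 58.1), 47 of 142 in the centre (33.1%, interval 25.4 to 41.5) and 20 of 69 on the right arm (29.0%, interval 18.7 to 41.2). The intervals overlap, and with 14 regions the left arm is too small to show any but a large difference.

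As on the other chromosomes, stronger combined-list peaks on II were more often overlapped by both replicates. Of its 75 peaks on II with −log10 q between 2 and 5, 1 was overlapped by both replicates. Among 57 peaks between 5 and 20 there were 17 (29.8%, interval 18.4 to 43.4), and among 26 peaks between 20 and 50 there were 21 (80.8%, interval 60.6 to 93.4). At 50 or more it was 33 of 34 (97.1%, interval 84.7 to 99.9). On III, IV, V and X the shares in these classes were 2.24%, 36.7%, 75.8% and 97.4%. The exception on II is II 9598596 to 9607391, described among the wide regions below. The combined list uses the reads of both replicates, so this is not independent backing.

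Regions on II had a median width of 1731 bp (quartiles 604 and 3557), and single widths ran between 1 bp and 18655 bp. The median peak width was 1835 bp in replicate 1, 2111 bp in replicate 2 and 1728 bp in the combined list. For comparison, the median region measured 2001.5 bp on III, 2270.5 bp on IV, 2284.5 bp on V and 2629 bp on X.

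Regions seen by both replicates were the widest by their median. Regions in all 3 lists had a median of 3488 bp and none was narrower than 495 bp. A region spans all of its peaks, so its width can only grow with each list that joins. In the 64 of them with exactly 1 peak in each replicate, the median peak was 2527 bp in replicate 1 and 2606 bp in replicate 2. Regions of replicate 2 and the combined list had a median of 2426 bp, and those of replicate 1 and the combined list 1435 bp. Regions of the combined list alone had a median of 551 bp, and 6 of these 56 were narrower than a read of 36 bp. Regions of replicate 1 alone had a median of 1716.5 bp and those of replicate 2 alone 855 bp, so the order did not follow the number of lists. Left-arm regions were the wider ones by their median, at 2916.5 bp, against 1732.5 bp in the centre and 1335 bp on the right arm. In the replicate lists the left-arm medians were 3219 and 4976 bp, above both other segments, but they rest on 8 and 7 peaks. Within a list, stronger peaks were also wider: across peaks on II, Spearman's rho of width and −log10 q was 0.511 in replicate 1, 0.550 in replicate 2 and 0.617 in the combined list. The peaks of a list share library and depth, so these values (n = 123, 127 and 192 peaks) only describe the lists.

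**Figure D3:**
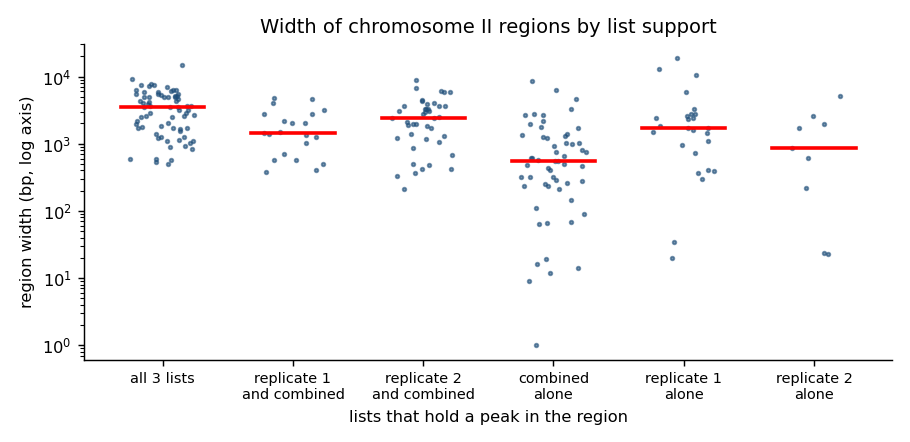
Width of each of the 225 regions of chromosome II (bp, log axis), grouped by the lists that hold a peak there; red lines are medians. Regions of all 3 lists have a median of 3488 bp and those of the combined list alone 551 bp, while the widest region, 18655 bp, belongs to replicate 1 alone.

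Neighbouring regions on II lay at very unequal distances. The median distance between neighbouring regions was 34.8 kb (quartiles 7.23 and 77.3 kb). In all, 25 distances (11.2%) lay under 1 kb, with a median of 317 bp and a minimum of 188 bp. In 23 of these 25 pairs some list had a peak on both sides, so that list had called 2 peaks where a small interval parted them. Within single lists the smallest distance was 229 bp in replicate 1, 205 bp in replicate 2 and 225 bp in the combined list. Short distances made up 18.8% of those on III, 10.4% for IV, 10.5% for V and 9.94% for X. None of the 25 was on the left arm, where the shortest of 14 distances measured 12084 bp.

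**Figure D4:**
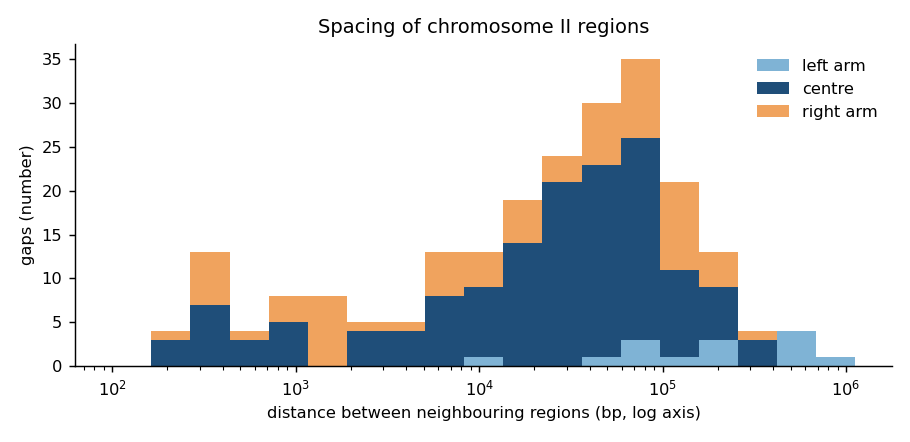
Distances between neighbouring regions of chromosome II (bp, log axis), stacked by the segment in which the midpoint of the distance lies. The median is 34.8 kb, 25 distances lie under 1 kb, and the 5 longest are all on the left arm.

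The longest stretches without any peak were on the left arm. They were II 1247689 to 2225693 (978 kb), II 321970 to 845923 (524 kb) and II 2453871 to 2919773 (466 kb). The first of these is ended by regions that only the combined list holds, 12 bp and 19 bp wide, followed by one of 1389 bp. In the replicate lists nothing broke the stretch, which there measured 1672 kb in replicate 1 and 1681 kb in replicate 2. More than 100 kb separated 41 of the 224 neighbouring pairs on II. These were 8 of 14 on the left arm, 18 of 141 in the centre and 15 of 69 on the right arm. Such distances made up 34 of 229 on III, 52 of 249 on IV, 69 of 209 on V and 64 of 171 on X.

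The clusters of II lay in the centre and on the right arm. A cluster is a run of 3 or more regions with no distance over 10 kb. There were 16, holding 51 of the 225 regions (22.7%, interval 17.4 to 28.7). The share depends on the settings: it was 14.7% with a limit of 5 kb, 38.2% with 20 kb and 11.1% with only peaks of q under 1e-5. None of the 14 left-arm regions was in one, which allows a share of up to 21.4%. In the centre 27 of 142 regions were clustered (19.0%, interval 12.9 to 26.4), and on the right arm 24 of 69 (34.8%, interval 23.7 to 47.2). The clustered share was 36.1% for III, 12.8% for IV, 13.3% for V and 16.9% for X. The right arm of IV (36 regions), both arms of V (31 and 21) and the left arm of X (28) had no clustered regions either. The left and right arms of III had 3 of 18 and 16 of 49. On the left arm of IV it was 6 of 65 and on the right arm of X 6 of 45.

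The 3 clusters with the most regions had 4 each, all on the right arm, and they were unlike each other. At II 11746580 to 11762473, all 4 regions had peaks of both replicates. Its strongest member, II 11756171 to 11757273, reached a −log10 q of 42.5 in replicate 1, 119 in replicate 2 and 125 in the combined list. The cluster at II 11964679 to 11979939 had both replicates in 2 of 4 regions and reached 42.4 in the combined list. At II 15206897 to 15230140, the last 23.2 kb of the span, no region had both replicates, 3 were in the combined list alone, and the highest combined-list value was 6.5.

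The strongest regions were taken as those with peaks of both replicates and the largest mean −log10 q over them. This leaves out the 3 replicate 1 peaks with the smallest q on II, which have no replicate 2 peak and are described below. The leading region was II 5659477 to 5664093, 4.62 kb wide, with a q of 3.16e-182 in replicate 1, 2.45e-209 in replicate 2 and 2.75e-274 in the combined list. It had rank 4 among the replicate 1 peaks of II by q. It is one of the few features that the comment lines of the files mark as altered when positions were carried over from an earlier build.

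The next was narrow: II 5543322 to 5544535 measured 1.21 kb, with q values of 5.21e-142 in replicate 1, 2.26e-179 in replicate 2 and 7.42e-203 in the combined list. II 12944138 to 12945163, on the right arm, was narrower still at 1.03 kb, with 1.58e-107 in replicate 1, 4.63e-114 in replicate 2 and 4.33e-157 in the combined list. Both regions were narrower than the 3488 bp median of regions in all 3 lists.

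Other strong regions had far smaller q-values in replicate 2. II 6888032 to 6893053 (5.02 kb) had a q of 1.82e-47 in replicate 1 and 6.18e-228 in replicate 2. II 7341706 to 7349411 (7.71 kb) had 1.6e-44 in replicate 1 and 7.22e-197 in replicate 2. II 14491967 to 14495507 (3.54 kb), on the right arm, had 1.05e-43 in replicate 1 and 2.98e-160 in replicate 2. In all 3 the exponent of q was more than 3 times as large in replicate 2. II 6342454 to 6349621 (7.17 kb) was less uneven, with 4.95e-61 in replicate 1 and 2.33e-146 in replicate 2. Only the last of the leading 8, II 7228493 to 7231322 (2.83 kb), had the smaller q in replicate 1, with 3.85e-110 against 1.62e-86 in replicate 2.

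The left arm had no region of such strength. Its strongest region with both replicates, II 319420 to 321969, had a q of 0.00573 in replicate 1 and 3.5e-27 in replicate 2. II 2919774 to 2924749 followed, with 8.83e-05 in replicate 1 and 7.04e-23 in replicate 2. After it came II 1232967 to 1247688, with the reverse order and q values of 1.32e-19 in replicate 1 and 0.000549 in replicate 2. The mean −log10 q of these left-arm regions reached 14.3 at most, against 195 in the centre and 110 on the right arm. Of the 26 regions of II with a mean of 30 or more, 16 were in the centre and 10 on the right arm. A left-arm peak at II 1103904 to 1107070, chosen after its values were seen, had a q of 5.8e-93 in replicate 1, none in replicate 2 and 5.61e-41 in the combined list.

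On the right arm, II 11544524 to 11548817 came after the 2 named above in strength, with a wide difference between the replicates. Its q was 6.6e-11 in replicate 1, 1.79e-185 in replicate 2 and 6.16e-182 in the combined list. In 67 of the 71 regions with both replicates the combined list had a smaller q than either replicate, and this region was one of the 4 that did not. The same held in 74 of 77 regions on III, 87 of 95 on IV, 74 of 85 on V and 47 of 60 on X.

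Across the 71 regions the replicates ordered strength alike only in part. Between replicates, −log10 q had a Spearman's rho of 0.461 and a Pearson's r of 0.594 over these regions, which share the input and the caller. On III, IV, V and X rho ran between 0.411 (60 regions) and 0.690 (77 regions). Replicate 2 had the smaller q in 49 of the 71 regions (69.0%) and replicate 1 in 22; replicate 2 had it in 79.2% for III, 63.2% for IV, 62.4% for V and 73.3% for X. Median −log10 q was 12.2 in replicate 1 and 25.1 in replicate 2. The value was more than 5 times as large in replicate 2 in 13 regions, and more than 5 times as large in replicate 1 in 6. Counted alike, III had 13 and 0 of 77 regions and IV 8 and 5 of 95. V had 13 and 0 of 85, and X 15 and 1 of 60. Depth moved with the difference between the replicates, since replicate 2 had 1.21 times the unique reads, and its part in the result was not tested. Both replicates were set against the same merged input.

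**Figure D5:**
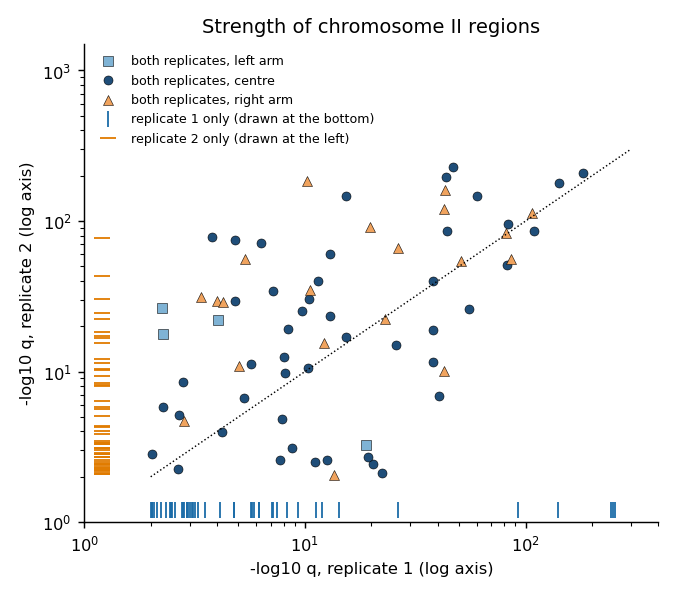
Strength of chromosome II regions as −log10 q in replicate 1 and in replicate 2 (log axes), with 71 regions called in both as symbols by segment and regions of a single replicate as ticks at the bottom and the left. The dotted line marks equal values; 49 of the 71 lie above it, and the 4 ticks of replicate 1 above 100 are the strong regions that only replicate 1 holds.

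Where both replicates had exactly 1 peak, they also drew it with similar borders. In these 64 regions the left edges differed by a median of 133.5 bp (quartiles 48.5 and 438) and the right edges by 118 bp (quartiles 31 and 469), which is a few read lengths of 36 bp. The part shared by both peaks was a median 88.5% of their union (quartiles 63.1 and 91.6), and in 38 of the 64 it was at least 80%. Replicate 2 drew the wider peak in 38 of them. The median shared part was between 82.0% and 87.8% on III, IV, V and X.

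Few regions were cut into pieces by a list. Replicate 1 split 4 regions, replicate 2 split 5 and the combined list 2. The 3 regions with the most peaks had 5 each. At II 8476779 to 8484180, replicate 2 and the combined list drew 1 peak each of about 7.4 kb, with q values of 1.3e-146 and 1.58e-181, while replicate 1 had 3 peaks of 340, 200 and 3312 bp, the best with a q of 4.22e-16. At II 8784278 to 8790478 it was replicate 1 that drew a single peak of 6168 bp (q 1.07e-44), and replicate 2 and the combined list divided it in 2. The last, II 9933622 to 9938627, was 2 peaks in each replicate and 1 in the combined list.

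Several of the widest regions were held by a single list. Of the 8 widest, 3 had peaks in all 3 lists, and 3 of the widest 4 were held by replicate 1 alone. The widest of all, II 10541830 to 10560484, measured 18655 bp and had a q of 1.11e-244 in replicate 1. II 14598390 to 14611275, on the right arm, measured 12886 bp with a q of 9.39e-141, and II 5330105 to 5340505 measured 10401 bp with a q of 7.4e-08. No other list had a peak in these 3 regions.

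Other wide regions were weak in one list, or missing from it. II 1232967 to 1247688, the second widest at 14722 bp, was 14677 bp wide in replicate 1 and 6059 bp in replicate 2. II 8011958 to 8021174 measured 9217 bp and had a q of 1.49e-05 in replicate 1, 1.17e-75 in replicate 2 and 3.58e-97 in the combined list. II 7341706 to 7349411, the eighth, is the strong region described above. Among the others, II 9598596 to 9607391 (8796 bp) had a q of 4.02e-44 in replicate 2, 4.01e-58 in the combined list and no peak in replicate 1, and II 4901880 to 4910407 (8528 bp) was in the combined list alone with a q of 0.000234.

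Replicate peaks without a combined-list partner were of 2 kinds on II, weak ones and a few of the strongest. In replicate 1, 26 of 123 peaks had no combined-list peak (21.1%, interval 14.3 to 29.4), against 15% on III, IV, V and X. These were 17 of 48 peaks with q over 1e-5, 5 of 24 between 1e-10 and 1e-5, none of 35 between 1e-50 and 1e-10, and 4 of 16 under 1e-50. For the first 3 classes III, IV, V and X had 18.6%, 7.41% and 2.05%, where II had 35.4% (interval 22.2 to 50.5), 20.8% (interval 7.13 to 42.2) and 0, and the differences were not tested. The last share is 25% (interval 7.27 to 52.4), against 43.5% on III, IV, V and X, which lies inside that interval. In replicate 2, 9 of 127 peaks had none (7.09%, against 8.28% on III, IV, V and X), all 9 with q over 1e-5. None of its 25 peaks under 1e-50 lacked a partner, which allows a share of up to 12.0% by 3 counts of the total and 13.7% by the exact interval, against 15% on III, IV, V and X.

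The 4 strong ones hold ranks 1, 2, 3 and 6 among the replicate 1 peaks of II by q. They are II 8819281 to 8821662 (2382 bp, q 2.75e-255), II 8742552 to 8748338 (5787 bp, q 1.74e-248), and the wide regions at II 10541830 and II 14598390 given above. Peaks of the other lists lay at different distances from them. The nearest combined-list peak was 4.56 kb from II 8819281 to 8821662 and 7.88 kb from II 8742552 to 8748338. For the wide ones it was 19.9 kb and 103 kb away. The smallest q in the combined list over II, III, IV, V and X was 1.81e-304, with none of 0, so the limit on missing peaks given at the start bears on these 4. The absence of a call in the other lists does not show that the polymerase was absent there in replicate 2, and reads were not analysed here.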

How the data were processed

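ChIP and input reads of 36 bp were aligned with Eland and peaks were called with PeakSeq, per the file headers and the deposited series tables; for their versions, none is given in the sources used here. The authors deposited q-values per peak, in lists for each ChIP replicate and for their merged reads, each called against the merged input, and read counts per sequencing run, per the deposited sample table. Coordinates are WormBase WS220, per the file headers.

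Peaks on II were joined at 1 bp of overlap; a region took the smallest q of each list and belongs to the segment of its midpoint. III, IV, V and X were treated alike. Merging and segments were tested on simulated data. No test across peaks was made. Alternatives were another overlap, joining distance, q threshold, span, segment border, cluster distance and single lists. The members, lists and comparisons were chosen with earlier results of these data known. Regions named are the 8 strongest, 3 strongest per arm, 8 widest, strong ones without a combined-list peak, those with the most peaks, 3 clusters and 3 distances. Python 3.11.15, NumPy 2.4.6, SciPy 1.17.1, pandas 2.3.3 and Matplotlib 3.10.9 were used.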

Additional observations from a re-analysis of the deposited data

How the results depend on the processing

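Of 50 alternatives, 40 stayed within 1.5 times (counts and edges), 0.1 (rho), 1 SD of the replicate lists (width) or the exact interval (shares). Centre over right-arm density, 1.03 as reported, was 0.937 in the combined list alone and 0.939 with q under 1e-5. The left arm held 5.51% to 6.50% of the peaks of a single list, 9.24% of the bases covered, and 8.75% where regions within 10 kb were counted once. Division into 3 equal parts, which by construction widens the arms, gave 13.3%, with 45.8% in the centre and 40.9% on the right. The number of regions was 126 with q under 1e-5, where fewer peaks enter, and 123 to 127 with a single replicate list. The median width was 1835 to 2111 bp with a single replicate list. The clustered share was 14.7% with a limit of 5 kb and 38.2% with 20 kb, which move it by construction. With q under 1e-5 it was 11.1%, against 22.7% as reported, so the share depended in part on the weaker peaks. Leaving out the 4 strong regions of replicate 1 alone, chosen after the data were seen, left 6.33% on the left arm, 62.9% in the centre, 30.8% on the right and 21.7% clustered. No paired analysis was possible because each list was called against 1 merged input and no result comes from a test between groups.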

Other observations

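The following patterns were noticed in the values and have no test. Narrow regions of II were usually weak: of 103 regions under 1.5 kb, 77 had a combined-list −log10 q under 20 and 16 had peaks of both replicates. In 5 of those 16 the mean −log10 q of the replicates was 30 or more. Besides the 2 narrow regions named among the strongest, these were II 5844565 to 5845392 (828 bp, q 4.45e-84 in replicate 1 and 3.52e-96 in replicate 2), II 11756171 to 11757273 (1103 bp, q 3.44e-43 and 3.51e-120) and II 11761586 to 11762473 (888 bp, q 4.79e-27 and 3.93e-67). The last pair belongs to 1 cluster. At the other end, 33 regions were at least 5 kb wide, of which 21 had both replicates, 7 had a combined-list −log10 q under 20 and 5 had no combined-list peak. Over all widths, 71 of the 225 regions had both replicates and 35 had no combined-list peak. Of the 192 combined-list peaks on II, 75 had a −log10 q between 2 and 5 and 57 between 5 and 20. Low values were thus common in this list, and the peaks that had them were narrower by their median. The median width was 570 bp and 1914 bp in these classes, against 2814 bp between 20 and 50 and 4747 bp at 50 or more.

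The sparser arm was the left one on II, III and X and the right one on IV and V. Counted in regions, right over left arm was 4.93 for II, 2.72 for III, 0.554 for IV, 0.677 for V and 1.61 for X. By bases covered, the replicate lists gave 1.05 and 1.00 on V, where the arms were about equal in these 2 lists. The combined list gave 0.828 and regions 0.783 there, with the right arm still the sparser one. Gene density by arm was not used here, and what lies behind the difference between the arms was not tested.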
